A study of Mus musculus with 12 samples.

Results

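Cyp1a1 encodes cytochrome P450 1A1, a haem enzyme of the endoplasmic reticulum that oxidises polycyclic aromatic hydrocarbons and other planar molecules. It was taken by its symbol from the expression table of each sample, as 1 gene of the 3532 used. It was chosen by its measured values, since its FPKM (fragments per kilobase of exon, scaled to the mapped reads of the library, a level per transcript length) differed among the groups of a study of mouse aorta. Its own levels are therefore given as a description without a test.

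The study sequenced mRNA from the aorta of mice in 4 groups with 3 samples each. HSAPN mice carried a knockdown of APPL1, an adaptor protein that binds adiponectin receptors, and ate a high-fat diet. HAPN and HFD mice were both labelled WT and both ate that diet, and WT mice ate a normal diet. The high-fat diet held 60% of its calories as fat and was fed for 12 weeks, with the stated aim of a type 2 diabetes model. The labels do not state what the titles HAPN and HSAPN stand for, what sets HAPN apart from HFD, how and in which cells APPL1 was knocked down, or the age, strain and sex of the mice. APPL1 itself was not analysed here, so the knockdown could not be checked. The samples titled HFD1 and HFD2 hold identical values and were counted as 1 library, called HFD1/2 below, which left 3 HSAPN, 3 HAPN, 2 HFD and 3 WT libraries. The labels do not say whether samples of a group came from separate animals, so p-values measure only the spread between these samples, which may be technical.

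Cyp1a1 is the best known target of the aryl hydrocarbon receptor, AhR. In cells without ligand AhR is held in the cytosol with Hsp90. After binding a dioxin, a polycyclic hydrocarbon or a tryptophan metabolite it enters the nucleus, pairs with ARNT and binds xenobiotic response elements near its target genes, whose shared core is GCGTG. Cyp1b1 and the receptor's repressor Ahrr are other classical targets, and CYP1A1 in turn breaks down several AhR ligands. In blood vessels Cyp1a1 is known from the endothelium, where ligands and steady blood flow induce it.

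In GENCODE M21 on GRCm38, Cyp1a1 (ENSMUSG00000032315.6) lies on the plus strand of chromosome 9, from 57687928 to 57703824, and has an exonic length of 2787 bases. It has 2 annotated transcripts of 7 exons each. Cyp1a1-201 starts at 57697613, and Cyp1a1-202 starts 9.68 kb upstream, at 57687928. The related gene Cyp1a2, which was not analysed here, lies on the opposite strand, and its start is 13.9 kb from that of Cyp1a1-201. The longest open reading frames of Cyp1a1 and Cyp1a2 matched at 78.05% of 1535 aligned bases, and the transcripts share an identical stretch of 137 bases. Reads from such stretches can be split or lost between the genes, so part of the Cyp1a1 signal is uncertain in that respect. The open reading frame of Cyp1b1, the family member compared with it below, matched at 57.95% of 1534 aligned bases, with no shared stretch longer than 13 bases.

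The promoter windows of Cyp1a1, of Cyp1b1 and of the clock genes Dbp and Nr1d2, whose groups stood in the same arrangement as those of Cyp1a1, are shown so that their letters can be compared. Each covers 250 bases before to 50 bases after the annotated start (RefSeq, GRCm38.p6): chr9:57697363-57697662 on the plus strand, chr17:79715012-79715311 on the minus strand, chr7:45704997-45705296 on the plus strand and chr14:18239057-18239356 on the minus strand. Capitals mark the core GCGTG, which reads CACGC where it lies on the other strand, and, in Cyp1a1, the TATA box letters TATAAA.
Cyp1a1: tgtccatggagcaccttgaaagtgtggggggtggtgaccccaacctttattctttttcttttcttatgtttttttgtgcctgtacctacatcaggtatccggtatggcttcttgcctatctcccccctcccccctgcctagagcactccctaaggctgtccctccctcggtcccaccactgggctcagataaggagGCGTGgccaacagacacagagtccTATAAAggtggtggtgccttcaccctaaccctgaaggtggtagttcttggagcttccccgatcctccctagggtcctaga
Cyp1b1: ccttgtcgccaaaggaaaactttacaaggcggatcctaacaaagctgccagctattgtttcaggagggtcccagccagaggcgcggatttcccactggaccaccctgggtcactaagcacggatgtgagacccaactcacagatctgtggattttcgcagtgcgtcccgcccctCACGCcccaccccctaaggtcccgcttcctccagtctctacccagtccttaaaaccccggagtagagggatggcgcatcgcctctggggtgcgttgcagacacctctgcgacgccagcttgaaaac
Dbp: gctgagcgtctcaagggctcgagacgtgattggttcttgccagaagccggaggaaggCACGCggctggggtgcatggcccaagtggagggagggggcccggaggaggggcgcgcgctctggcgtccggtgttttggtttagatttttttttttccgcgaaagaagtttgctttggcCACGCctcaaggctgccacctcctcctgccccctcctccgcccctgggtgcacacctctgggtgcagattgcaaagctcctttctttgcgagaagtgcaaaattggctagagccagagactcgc
Nr1d2: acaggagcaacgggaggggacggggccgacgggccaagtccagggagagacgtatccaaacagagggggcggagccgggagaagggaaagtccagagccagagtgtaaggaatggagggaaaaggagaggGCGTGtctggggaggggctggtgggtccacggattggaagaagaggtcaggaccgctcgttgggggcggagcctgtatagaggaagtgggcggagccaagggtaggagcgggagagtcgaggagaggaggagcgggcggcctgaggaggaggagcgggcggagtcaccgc

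In the Cyp1a1 window the core GCGTG began at position -54 and the letters TATAAA at position -30, counted from the annotated start. The core stood at -76 in Cyp1b1, at -193 and -74 in Dbp, each on the other strand, and at -120 in Nr1d2. None of the matches overlapped another. On either strand, 32.4% of 32851 promoter windows of this length hold GCGTG, and 13.6% hold TATAAA, so the core alone does not set these windows apart. The E-box letters CACGTG, held by 7.15% of the windows, and the D-box letters TTATGTAA, held by 0.938%, were not found in the 4 windows. Cyp1a1 had 4 CpG dinucleotides in its window, against 16 in Cyp1b1, 18 in Dbp and 20 in Nr1d2. A match is a description of letters and no measure of binding, so none is shown to be a site that AhR uses. Letters outside these windows, where further sites of any of these kinds may lie, were not searched.

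The files hold FPKM without counts. Whole reads could be recovered from the values and exonic lengths, at 15680000 to 17880000 reads per library, of which the deposited genes took 12.0 to 17.6%. For Cyp1a1, 1 read was worth 0.0201 to 0.0229 FPKM, and its values came within 0.0464 of a whole read in every library. The intervals below are exact 95% Poisson intervals on those reads and cover counting error only. Libraries of the same group differed in genes of tissues next to the aorta: summed airway marker FPKM (5 of 22 listed genes) ran from 42.8 to 1530 in HSAPN, 7.52 to 4201 in HAPN, 11.6 to 6874 in HFD and 343 to 11870 in WT, and summed adipocyte marker FPKM (18 of 18) from 130 to 248, 124 to 451, 131 to 2005 and 224 to 1304 in the same groups. The labelled tissue was checked against smooth muscle genes, of which 10 of 16 listed were in the table. Acta2, the smooth muscle actin, was between 146 and 1607 FPKM in every library. Of the 10, 8 reached 1 FPKM in at least 3 libraries. Tagln, at 0.279 to 3.32 FPKM, and Susd5, at 0.0442 to 1.62 FPKM, did not, so the markers were not uniformly high. Of 25 listed endothelial genes, Mmrn2 and Fabp4 were in the table and the other genes were not analysed here. Mmrn2 was 4.56, 9.71 and 6.59 FPKM in HSAPN and 3.09, 6.455 and 6.42 FPKM in HAPN. It was 6.99 and 5.51 FPKM in HFD (HFD1/2 first) and 1.16, 2.32 and 7.96 FPKM in WT. Fabp4 is also on the adipocyte list, so Mmrn2 alone was left to follow the endothelial content of the libraries, which 1 gene cannot settle. In bulk aorta, fewer cells of a type and less RNA per cell cannot be told apart.

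Cyp1a1 was high in the APPL1 knockdown libraries and in normal diet libraries, and low in both other high-fat groups. In HSAPN it was 12.6 FPKM in replicate 1 (620 reads, interval 11.6 to 13.6 FPKM), 4.32 FPKM in replicate 2 (211 reads, 3.75 to 4.94) and 11.2 FPKM in replicate 3 (517 reads, 10.2 to 12.2). In HAPN it was 0.664 FPKM in replicate 1 (30 reads, 0.448 to 0.947), 1.59 FPKM in replicate 2 (79 reads, 1.26 to 1.98) and 2.75 FPKM in replicate 3 (120 reads, 2.28 to 3.28). HFD1/2 held 0.293 FPKM (13 reads, 0.156 to 0.501), and HFD replicate 3 held 1.19 FPKM (55 reads, 0.894 to 1.54).

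In WT the gene stood at 3.46 FPKM in replicate 1 (169 reads, 2.96 to 4.03), 3.73 FPKM in replicate 2 (186 reads, 3.22 to 4.31) and 16.1 FPKM in replicate 3 (761 reads, 14.9 to 17.2). WT replicate 3 and HSAPN replicates 1 and 3 were the 3 highest of the 11 libraries, and HFD1/2 and HAPN replicate 1 the lowest. The highest library held 54.8 times the FPKM of the lowest. No HSAPN or WT library lay below any HAPN or HFD library.

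**Figure D1:**
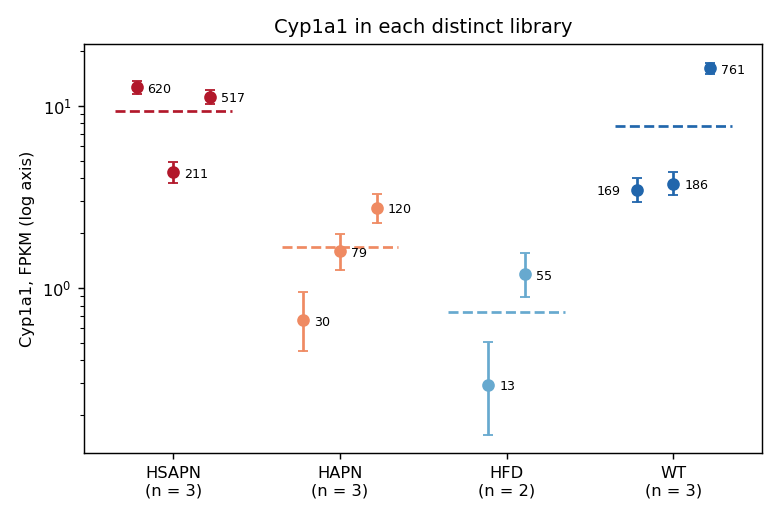
Cyp1a1 level in each distinct library, in FPKM on a log axis, by group from HSAPN on the left through HAPN and HFD to WT on the right. Points are libraries with their recovered reads, vertical bars are exact 95% Poisson intervals and dashed lines are group means. All HSAPN and WT libraries, at 3.46 FPKM or more, lie above all HAPN and HFD libraries, at 2.75 FPKM or less.

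As mean ± SD, Cyp1a1 stood at 9.36 ± 4.43 FPKM in HSAPN (n = 3), 1.67 ± 1.04 FPKM in HAPN (n = 3), 0.740 ± 0.632 FPKM in HFD (n = 2) and 7.75 ± 7.20 FPKM in WT (n = 3). In order from high to low the means ran HSAPN, WT, HAPN, HFD. HSAPN and WT overlapped, and so did HAPN and HFD. The gap in the order lay between WT and HAPN, where the lowest WT library held 1.26 times the FPKM of the highest HAPN library. Within a group the highest library held 2.92 times the lowest in HSAPN, 4.14 times in HAPN, 4.05 times in HFD and 4.64 times in WT. In HAPN and HFD the intervals of the libraries did not overlap each other, so the libraries of a group differed by more than counting error. On the scale log2(FPKM + 1), the SD of Cyp1a1 within groups was 0.798, against a median of 0.347 over the 1659 tested genes, and larger than that of 89.9% of them. The 4 groups accounted for 71.1% of its spread, against a median of 42.7% over the tested genes, and 141 genes had a larger share. Nothing is read from this share, since Cyp1a1 was chosen for differing among these groups.

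The 6 comparisons between groups share libraries with each other and are given side by side. Differences are those of group means of log2(FPKM + 1), a scale that understates changes of low genes, and the share of all tested genes whose groups did not overlap in the same direction stands beside each, from which nothing is read since Cyp1a1 was chosen for these values. HSAPN against HAPN asks what the knockdown group added to a WT high-fat group: Cyp1a1 was 5.62 times as high in HSAPN, a log2 difference of 1.92, and the groups did not overlap (9.95% of genes). The lowest HSAPN library held 1.57 times the FPKM of the highest HAPN library. In this comparison 1 tested gene had a larger positive difference, as Cyp1a1 ranked 2 of 1659 from the top. Against HFD, HSAPN was 12.65 times as high, a log2 difference of 2.51 without overlap (5.61% of genes), again at rank 2 from the top. Here the lowest HSAPN library held 3.64 times the highest HFD library.

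Against the normal diet, the high-fat groups parted. HFD held 0.0954 of the FPKM of WT, so that WT was 10.5 times as high, with a log2 difference of -2.08 and no overlap (7.17% of genes), at rank 4 from the bottom. HAPN held 0.215 of the FPKM of WT, a log2 difference of -1.49 without overlap (20.4% of genes), at rank 24 from the bottom. HSAPN averaged 1.21 times WT, a log2 difference of 0.43, with overlapping groups, where 10.3% of genes stood higher in HSAPN without overlap. HAPN averaged 2.25 times HFD, a log2 difference of 0.59, also with overlapping groups, where 6.51% of genes stood higher in HAPN without overlap. The median difference over all tested genes was 0.03 in HSAPN against HAPN, -0.18 in HSAPN against HFD, 0.07 in HFD against WT, -0.17 in HAPN against WT, -0.12 in HSAPN against WT and -0.24 in HAPN against HFD.

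WT replicate 3, the library with the most Cyp1a1, also stood apart in liver genes. Of 12 listed hepatocyte genes 8 were in the table, and their summed FPKM was 8.41 to 15.7 in HSAPN, 8.32 to 38.1 in HAPN, 5.27 to 168 in HFD and 6.89 to 410 in WT, where 410 was replicate 3. Apart from Cyp2e1, all 7 had their highest level in that library, between 6.82 FPKM for Fgb, a fibrinogen chain, and 190 FPKM for Alb, serum albumin, and none exceeded 5.54 FPKM in another library. Alb was 0.220 and 0.334 FPKM in WT replicates 1 and 2. The 168 FPKM of HFD1/2 was nearly all Cyp2e1, at 160 FPKM. Liver genes were not the only ones that set WT replicate 3 apart from WT replicates 1 and 2. Summed erythrocyte FPKM was 3266 against 445 and 445, and summed adipocyte FPKM 1304 against 224 and 473. In airway, smooth muscle and cardiac sums it lay between WT replicates 1 and 2. Without WT replicate 3 the Cyp1a1 difference was -1.45 for HFD against WT and -0.86 for HAPN against WT, in place of -2.08 and -1.49, and 1.06 for HSAPN against WT in place of 0.43. WT replicates 1 and 2, at 3.46 and 3.73 FPKM, still lay above every HAPN and HFD library.

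The other marker lists were summed in the same way. Summed smooth muscle FPKM was 313 to 522.5 in HSAPN, 295 to 551 in HAPN, 251 to 917 in HFD and 709.5 to 2897 in WT. For these sums and the fibroblast sums below, WT lay above all HSAPN and HAPN libraries. Of single tested genes, 19.0% stood lower in HSAPN than in WT without overlap, and 20.4% lower in HAPN. Summed erythrocyte FPKM (11 of 12 listed genes) was 3244 to 4963 in HSAPN, 1348 to 3969 in HAPN, 2253 to 3925 in HFD and 445 to 3266 in WT. Fibroblast FPKM (8 of 14) was 222 to 242, 192 to 234, 230 to 367 and 307 to 354 in the same groups, macrophage FPKM (3 of 11) 37.7 to 57.5, 22.3 to 59.7, 30.3 to 82.9 and 21.1 to 45.0, and cardiac FPKM (2 of 14) 10.8 to 105, 7.02 to 86.6, 7.16 to 243 and 43.4 to 215. Over the 11 libraries, Pearson r between Cyp1a1 and the log2 sum of a list lay between -0.14 for the 2 endothelial genes and 0.19 for erythrocyte genes, as a description. The endothelial sum was mostly Fabp4 where it was highest, at 216 of 223 FPKM in HFD1/2, and Fabp4 is on the adipocyte list too. No skin epithelium gene of the 6 listed was in the table. The part of tissue content in the Cyp1a1 levels was not tested.

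**Figure D2:**
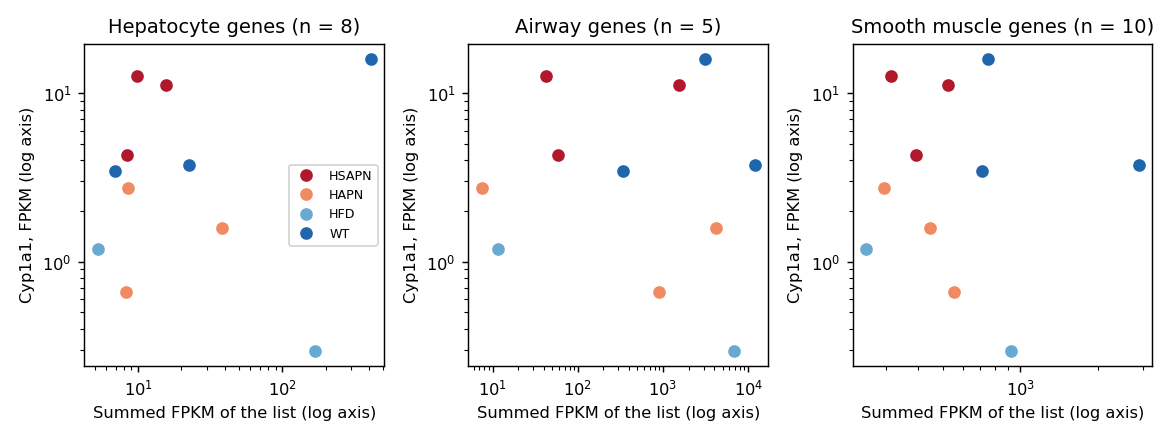
Cyp1a1 FPKM against the summed FPKM of hepatocyte, airway and smooth muscle marker genes in each library, on log axes, with libraries coloured by group. WT replicate 3 stands alone at 410 FPKM of hepatocyte genes, while the HSAPN libraries with 12.6 and 11.2 FPKM of Cyp1a1 lie at 15.7 FPKM or less.

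With all libraries, no other AhR target that could be tested was called in any comparison. Of 31 other listed targets, 9 were in the table and 4 passed the filter of at least 1 FPKM in at least 3 libraries: Cyp1b1, Slc7a5, Fos and Cdkn1a. The count was 0 of 4 in each of the 6 comparisons at an adjusted p of 0.05 (limma, Benjamini-Hochberg over all 1659 tested genes), and also 0 by limma-voom on the recovered reads. At an unadjusted p under 0.05 there were 2 of the 4 in HAPN against WT, where 368 of all 1659 genes were under it, 1 in HSAPN against WT (360 of all genes), 1 in HAPN against HFD (143) and 0 in the other comparisons. Over all tested genes limma called 0.121% in HSAPN against HAPN, 0.0% in HSAPN against HFD, 0.181% in HAPN against HFD, and 0.0% in each comparison with WT, so few genes of any kind passed. The median log2 difference of the 4 targets was 0.19 in HSAPN against HAPN, -0.14 in HSAPN against HFD, -0.15 in HAPN against HFD, 0.14 in HSAPN against WT, -0.04 in HAPN against WT and 0.10 in HFD against WT.

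Cyp1b1, the P450 that shares AhR control with Cyp1a1 and also serves oestrogen and lipid oxidation, was of moderate level in every library. It was 5.59, 6.18 and 5.22 FPKM in HSAPN, 6.49, 2.99 and 4.64 FPKM in HAPN, 7.41 and 5.37 FPKM in HFD (HFD1/2 first) and 6.38, 4.35 and 7.26 FPKM in WT. All groups overlapped each other, and the means lay between 4.71 ± 1.75 FPKM in HAPN (SD, n = 3) and 6.39 ± 1.44 FPKM in HFD (SD, n = 2). Its log2 difference was 0.27 in HSAPN against HAPN (limma adjusted p = 0.999) and 0.09 in HFD against WT (limma adjusted p = 0.939). The ratio of Cyp1a1 to Cyp1b1 FPKM, which library scaling cannot change, was 2.255, 0.698 and 2.14 in HSAPN, 0.102, 0.532 and 0.592 in HAPN, 0.0396 and 0.221 in HFD and 0.543, 0.858 and 2.21 in WT. On this ratio HSAPN still lay above both HAPN and HFD, while the lowest WT library lay below the highest HAPN library. Pearson r between the levels of both genes was 0.08 over the 11 libraries.

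Fos and Cdkn1a, targets that many other signals also control, had the largest differences of the list. Fos, an immediate early transcription factor, was 14.2, 9.16 and 12.4 FPKM in HSAPN, 11.3, 5.37 and 10.5 FPKM in HAPN, 17.7 and 17.3 FPKM in HFD and 15.1, 33.96 and 18.4 FPKM in WT. HSAPN and HAPN each lay below HFD and WT without overlap, as did 14.2% of tested genes in HSAPN against HFD, 19.8% in HAPN against HFD, 19.0% in HSAPN against WT and 20.4% in HAPN against WT. For Fos, HAPN against WT had a log2 difference of -1.20 (SE 0.338, limma adjusted p = 0.129). Cdkn1a, the cell cycle inhibitor p21, was 55.3, 29.9 and 39.5 FPKM in HSAPN, 46.8, 67.7 and 72.5 FPKM in HAPN, 34.9 and 57.6 FPKM in HFD and 19.1, 18.2 and 47.9 FPKM in WT. HAPN against WT overlapped in Cdkn1a through WT replicate 3, with a log2 difference of 1.23 (SE 0.395, limma adjusted p = 0.154). Without that library it was 1.66 and was called (limma adjusted p = 0.0252). Slc7a5, an amino acid transporter, lay between 1.15 and 2.97 FPKM in every library, and HSAPN, at 2.17, 2.34 and 2.71 FPKM, stood above WT, at 1.26, 2.11 and 1.76 FPKM (log2 difference 0.34, limma adjusted p = 0.403), without overlap, as did 10.3% of tested genes.

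The 5 targets below the filter were too low for a test. Ahrr, the AhR repressor and a target usually induced together with Cyp1a1, had 3 to 13 reads in each library and 0.0182 to 0.0878 FPKM, and its highest library was HAPN replicate 3. Ugt1a6a, a glucuronosyltransferase that conjugates phenols, was 0.617, 0.383 and 0.447 FPKM in HSAPN, 0.529, 0.364 and 0.325 FPKM in HAPN, 0.365 and 0.349 FPKM in HFD and 0.875, 1.10 and 0.477 FPKM in WT, with 22 to 85 reads per library. It shares exons with other Ugt1a genes, so its reads are uncertain. Gsta1, a glutathione transferase, had 2 to 17 reads, and Ereg, the growth factor epiregulin, 2 to 29 reads. Serpinb2, a plasminogen activator inhibitor, had 316 reads (8.46 FPKM) in HFD1/2, the library with the least Cyp1a1, and at most 0.826 FPKM elsewhere. Of 28 listed genes of the AhR pathway itself, Ahrr and Arnt2, an ARNT relative, were in the table. Arnt2 was 0.0876 to 0.409 FPKM, and the receptor and its main partner were not analysed here.

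**Figure D3:**
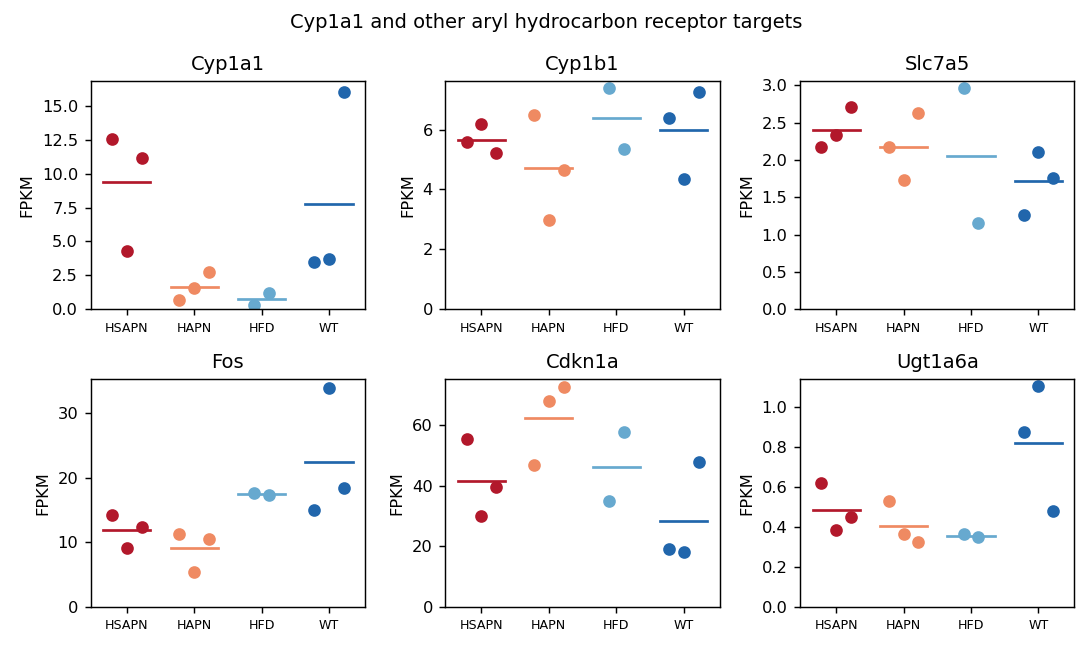
Cyp1a1 beside other aryl hydrocarbon receptor targets in each library, in FPKM on linear axes from 0, with HSAPN on the left, then HAPN, HFD and WT; points are libraries and lines group means. Cyp1b1 stays between 2.99 and 7.41 FPKM over the libraries in which Cyp1a1 runs from 0.293 to 16.1 FPKM.

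Genes that work with or beside CYP1A1 gave no called difference. Of the 9 other P450 genes in the table, Cyp1b1 and Cyp2e1, an ethanol-oxidising P450 of liver and fat, were tested and not called. Cyp2e1 was 5.43, 5.94 and 6.39 FPKM in HSAPN, 6.37, 36.3 and 3.25 FPKM in HAPN, 160 and 2.87 FPKM in HFD and 5.59, 20.7 and 76.2 FPKM in WT, so the 2 HFD libraries were the highest and the lowest of all 11. The remaining 7 P450 genes did not exceed 0.885 FPKM, and 1 of them was listed at 0 throughout. Of 15 listed partners, the haem-making enzyme Fech and the epoxide hydrolase Ephx2 were in the table. Fech was 17.1, 17.7 and 18.4 FPKM in HSAPN, 15.1, 19.1 and 14.3 FPKM in HAPN, 24.0 and 12.5 FPKM in HFD and 11.8, 15.7 and 21.8 FPKM in WT. Its groups overlapped in every comparison, and Ephx2 ranged from 1.10 to 28.3 FPKM with its highest value in HFD1/2.

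Conjugating enzymes act on the products of P450 enzymes, and none of those tested was called with all libraries. Of 44 listed, 7 were in the table, 4 of them below the filter, and 3 were tested, with a median log2 difference of -1.07 in HSAPN against WT, -0.70 in HAPN against WT and -0.85 in HFD against WT. Gstm5, a glutathione transferase, was 3.63, 3.52 and 5.51 FPKM in HSAPN, 5.88, 5.40 and 4.34 FPKM in HAPN, 7.43 and 4.56 FPKM in HFD and 7.51, 11.2 and 7.23 FPKM in WT. HSAPN against WT had a log2 difference of -0.88 for Gstm5 and -1.07 for Mgst2, a microsomal glutathione transferase, without overlap in either (limma adjusted p = 0.168 for both; 19.0% of genes stood lower without overlap). Without WT replicate 3, Mgst2 was called in this comparison (log2 difference -1.40, limma adjusted p = 0.0234). The third gene, Gsto1, was 77.8 to 318 FPKM in HSAPN and 212.5 to 811.5 FPKM in WT. Of 25 listed genes that make or break down AhR ligands from tryptophan, Kyat1, Maoa and Maob were tested, and none was called. The lowest limma adjusted p among them was 0.225, in HAPN against WT. Of 26 listed targets of NRF2, the factor of the oxidative stress response, Gclm, Slc7a11, Taldo1, Tkt and Fth1 were in the table beside Gsta1, 4 were tested and none was called, with a lowest limma adjusted p of 0.196, again in HAPN against WT.

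The genes whose levels followed Cyp1a1 most closely were sought among genes whose log2(FPKM + 1) averaged 1 or more and that are neither unnamed models nor pseudogenes nor segments of antibody or T cell receptor loci. The measure was Pearson r of log2(FPKM + 1) over the 11 libraries, given without a p. Over the 1658 other tested genes r ran from -0.84 to 0.69, with a median of -0.03. The highest 8 were Sf1, a splicing factor (0.67), Nr1d2, the clock repressor REV-ERB beta (0.66), Ecm2, a matrix protein (0.66), Alb (0.61), Retnla, a product of alternatively activated macrophages (0.58), Ctnnbip1, an inhibitor of beta-catenin (0.56), Dbp, a clock output factor (0.55), and Zc3hc1 (0.52). Among the lowest were Ech1, an enzyme of fatty acid oxidation (-0.76), Tmem40 (-0.67) and Asns, asparagine synthetase (-0.67).

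Likeness between groups and within groups differed among these genes. After subtracting each group's mean, Sf1 still had an r of 0.80 with Cyp1a1 and Alb one of 0.78, while Nr1d2 had -0.35 and Dbp -0.47. With the FPKM as deposited, the group means of the clock genes were also in another order than those of Cyp1a1. HAPN against HFD had a log2 difference of -0.11 for Nr1d2 (SE 0.236) and -0.37 for Dbp (SE 0.472), against 0.59 for Cyp1a1. Both clock gene differences were smaller than their SE, and the median over all tested genes was -0.24 there, so nothing is read from this order. Over all libraries, leaving out WT replicate 3 lowered r to 0.52 for Alb, 0.59 for Sf1, 0.51 for Ecm2, 0.50 for Ctnnbip1 and 0.42 for Zc3hc1. It raised r to 0.70 for Nr1d2, 0.62 for Retnla and 0.60 for Dbp. Within WT, Alb was 190 FPKM in replicate 3 against 0.220 and 0.334 FPKM. The r within groups was not computed without that library. Ech1 had -0.38 within groups and -0.76 over all libraries.

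**Figure D4:**
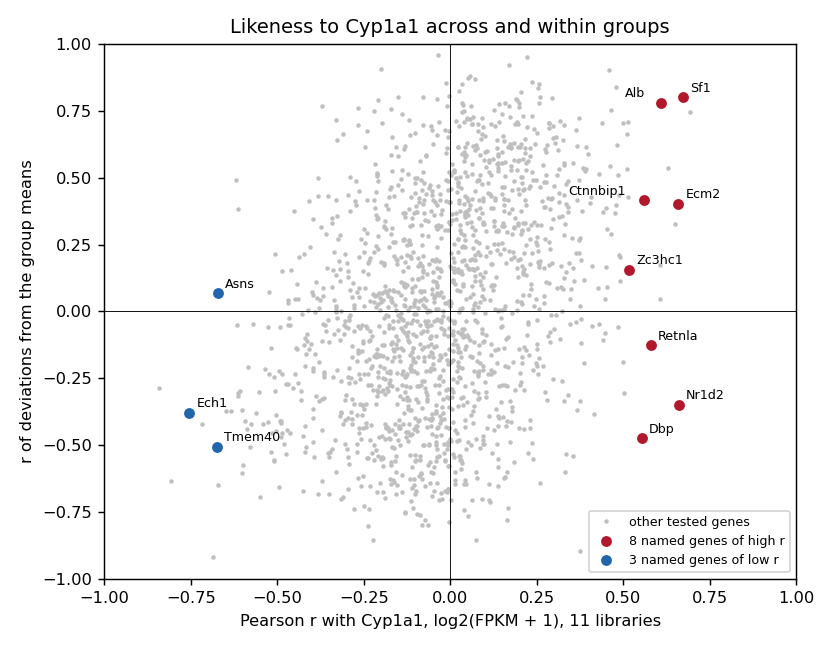
Pearson r of each tested gene with Cyp1a1 over 11 libraries (horizontal) against r of the deviations from group means (vertical), both on log2(FPKM + 1). The 8 genes of high r and 3 genes of low r that the text names are marked. Nr1d2 and Dbp lie to the right and below zero, Sf1 and Alb to the right and above it.

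The arrangement of Cyp1a1, with every HSAPN and WT library on one side of every HAPN and HFD library, was found in 8 tested genes in all, 0.482% of 1659. Above stood Cyp1a1, Nr1d2, Dbp, Vdr and Srek1ip1 (0.301%), and Prg2 was among the genes below (0.181%). Vdr, Prg2 and Srek1ip1 were named after their values were seen. Nr1d2 was 28.85, 21.4 and 26.8 FPKM in HSAPN, 16.2, 11.7 and 10.3 FPKM in HAPN, 16.1 and 11.5 FPKM in HFD and 24.4, 24.7 and 21.1 FPKM in WT. Dbp was 12.5, 7.92 and 14.5 FPKM in HSAPN, 3.79, 2.36 and 2.39 FPKM in HAPN, 4.33 and 3.50 FPKM in HFD and 18.1, 36.7 and 9.30 FPKM in WT. In both genes the HSAPN and WT libraries overlapped each other, and so did the HAPN and HFD libraries, as in Cyp1a1.

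HSAPN against HAPN had a log2 difference of 0.97 for Nr1d2 (limma adjusted p = 0.147). Prg2, an eosinophil granule protein, ran the other way, at 0.676, 0.476 and 1.94 FPKM in HSAPN, 2.13, 4.42 and 2.66 FPKM in HAPN, 2.63 and 5.74 FPKM in HFD and 0.341, 0.534 and 0.421 FPKM in WT. Its sides met at 1.94 FPKM in HSAPN replicate 3 and 2.13 FPKM in HAPN replicate 1. Vdr, the vitamin D receptor, lay between 1.48 and 3.41 FPKM, and its sides met at 1.866 FPKM in HSAPN replicate 2 and 1.862 FPKM in HFD replicate 3. In Srek1ip1 they met at 6.146 FPKM in WT replicate 3 and 6.144 FPKM in HFD1/2, so both arrangements rest on differences far smaller than the spread between libraries.

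**Figure D5:**
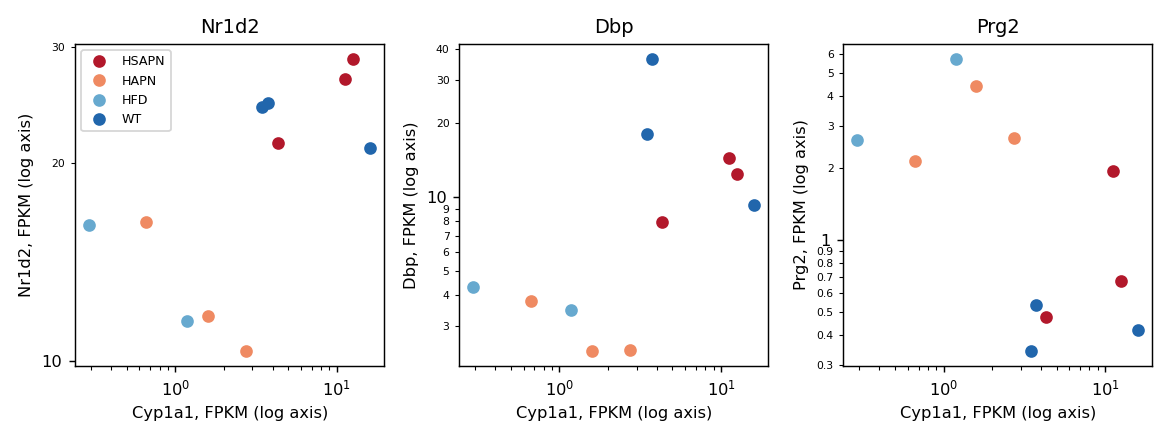
Nr1d2, Dbp and Prg2 FPKM against Cyp1a1 FPKM in each library, on log axes, coloured by group. HSAPN and WT libraries lie to the right in all panels, above the others for Nr1d2 (21.1 FPKM or more) and Dbp (7.92 FPKM or more), and below them for Prg2 (1.94 FPKM or less).

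Since Nr1d2 and Dbp are clock genes, the clock list was read as a whole. Of 24 listed, 6 were in the table and 5 were tested: Nr1d2, Dbp, Hlf, Nfil3 and Noct. None was called in any comparison with the FPKM as deposited and all libraries. At an unadjusted p under 0.05 there were 3 of the 5 in HSAPN against HAPN, where 130 of all 1659 genes were under it, 3 in HSAPN against HFD (67 of all genes), 3 in HAPN against WT (368), 3 in HFD against WT (189) and 0 in the other comparisons. Wherever the count was 3, the genes were Nr1d2, Dbp and Nfil3. Nr1d2 and Dbp had prompted the reading of this list by their arrangement over the same groups, so nothing is read from these counts. Dbp came nearest to a call, in HAPN against WT (log2 difference -2.36, SE 0.422, limma adjusted p = 0.0523). Nfil3, a repressor that competes with Dbp for D-box sites, was 3.44, 2.76 and 3.18 FPKM in HSAPN, 7.79, 7.81 and 8.62 FPKM in HAPN, 8.81 and 5.37 FPKM in HFD and 3.72, 3.81 and 5.84 FPKM in WT, with HAPN above WT without overlap, as were 7.11% of genes. HSAPN against HAPN differed in Nfil3 by -1.14 on the log2 scale (limma adjusted p = 0.143), and its groups did not overlap, as in 7.53% of genes that stood lower. With median-ratio scaling of the libraries Nfil3 was called in that comparison (log2 difference -1.20, limma adjusted p = 0.0301). Hlf, a Dbp relative, ranged from 1.33 to 6.08 FPKM and Noct, a clock-controlled nuclease, from 1.55 to 2.66 FPKM. The labels do not state the time of day at which tissue was taken, and the part of the clock in the Cyp1a1 levels was not tested.

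Genes near Cyp1a1 on chromosome 9 were read beside it. Within 500 kb the table holds Cox5a, a subunit of cytochrome oxidase that lies 156 kb away, at 15.1 to 29.1 FPKM, Scamp5, a membrane trafficking gene, at 1.09 to 2.93 FPKM, and Islr at 4.23 to 17.5 FPKM, beside Islr2 at up to 0.361 FPKM and a pair of processed pseudogenes. Other genes of the region were not analysed here.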

How the data were processed

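The authors deposited 1 table of gene symbols and FPKM values for each of 12 samples. The tools in the submitters' processing notes are DESeq 1.8.3 and featureCounts 1.5.0-p3, the build is GRCm38, and no role is stated. The aligner, annotation release, read length and strand setting were not given in the sources used here. Per the labels, TRIzol was used to isolate RNA and a directional NEB kit to make libraries.

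Identical files were merged, and a symbol listed more than once, Dlg2, was left out. Of 3532 genes, 3407 matched GENCODE M21, whose exonic lengths turned 95.7 to 97.0% of low values (up to 20 reads) into whole reads within 0.1. That the scale is FPKM and not TPM rests on the deposited values, and another scale would change the read totals. The 1659 genes that reached 1 FPKM in 3 or more libraries entered limma-trend (limma 3.58.1, R 4.3.3) on log2(FPKM + 1), in 1 fit of 4 group means with 7 residual degrees of freedom. Calls were made at 0.05 after Benjamini-Hochberg adjustment over these genes. The fit was checked on simulated data. Cyp1a1 received no test. Alternatives covered pseudocount, filter, scaling, libraries left out, replicate block, the compared groups alone, the identical HFD1 and HFD2 counted separately, and limma-voom. Tables, intervals, alignments and figures used pandas 2.3.3, NumPy 2.4.6, SciPy 1.17.1, Biopython 1.88 and matplotlib 3.10.9 in Python 3.11.15.

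Cyp1a1, the gene lists, the alternatives and the naming rule were chosen with earlier results of these data known. By that rule the text names Cyp1a1, tested AhR targets, P450 genes and partners, the 8 genes of highest and 4 of lowest Pearson r with Cyp1a1, and genes of other lists with the smallest p. Not every gene it names is described, and 1 of them is not reported here.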

Additional observations from a re-analysis of the deposited data

How the results depend on the processing

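The Cyp1a1 differences kept their sign with other pseudocounts, median-ratio scaling, libraries left out, and HFD1 and HFD2 counted separately. Where the groups did not overlap, pseudocounts, left-out libraries and the HFD count could not have changed the sign. The other alternatives were not read for Cyp1a1. With a pseudocount of 0.1 in place of 1, Cyp1a1 moved by more than the spread between libraries to -3.09 in HFD against WT and 3.59 in HSAPN against HFD. Leaving out 1 library at a time, the log2 difference ran from 1.62 to 2.35 in HSAPN against HAPN, 2.13 to 2.94 in HSAPN against HFD, 0.21 to 0.97 in HAPN against HFD, 0.09 to 1.06 in HSAPN against WT, -1.83 to -0.86 in HAPN against WT and -2.46 to -1.45 in HFD against WT. The number of other AhR targets called was 0 throughout, apart from 1 in HAPN against WT without WT replicate 3 (range 0 to 1). Median-ratio scaling moved the median of all genes by 0.201 in HAPN against HFD, 0.160 in HSAPN against HFD and 0.131 in HAPN against WT.

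The number of genes called by limma was less stable, and the cause was not tested. With no filter it was 1 in HSAPN against HAPN (main value 2), 2 in HSAPN against HFD (0), 5 in HAPN against HFD (3), 1 in HAPN against WT (0) and 2 in HFD against WT (0). A stricter filter of 6 libraries gave 0 in HAPN against HFD. With the compared groups alone it was 0 in HSAPN against HAPN, 1 in HSAPN against HFD and 0 in HAPN against HFD. Median-ratio scaling gave 5 in HAPN against HFD and 16 in HAPN against WT. In another run the identical HFD1 and HFD2 were counted as separate libraries, so the same values entered 2 times. That run gave 1 in HSAPN against HFD, 9 in HAPN against HFD, 1 in HSAPN against WT, 16 in HAPN against WT and 4 in HFD against WT. Limma-voom on recovered reads gave 1 in HSAPN against HAPN and 0 in HAPN against HFD. Leaving out 1 library gave 0 to 3 in HSAPN against HAPN, 0 to 3 in HSAPN against HFD, 0 to 6 in HAPN against HFD, 0 to 164 in HSAPN against WT, 0 to 177 in HAPN against WT and 0 to 27 in HFD against WT.

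Replicate numbers are shared between groups without a stated pairing. Deviations of same-numbered libraries had a mean r of 0.002 over 9 pairs (-0.535 to 0.332), against -0.004 over 18 pairs with other numbers. With the replicate block, 0 genes were called in HSAPN against HAPN, 1 in HAPN against WT and 0 in HSAPN against WT. Single results that changed sign were Alb in HAPN against WT (-3.10 to 0.54 leaving out 1 library, the highest without WT replicate 3), Ephx2 in HSAPN against HFD (-3.32 to 0.40, the highest without HFD1/2), Fech in HSAPN against WT (-0.060 to 0.35, the lowest without WT replicate 1), and the likeness to Cyp1a1 within groups, at -0.35 for Nr1d2, -0.13 for Retnla, -0.47 for Dbp and 0.067 for Asns. In HAPN against WT, Dbp was called with median-ratio scaling (adjusted p = 0.0447, limma), with the identical HFD1 and HFD2 counted separately (0.0252) and without WT replicate 3 (0.0104). Nfil3 was called in HSAPN against HAPN with median-ratio scaling (0.0301), and Mgst2 in HSAPN against WT (0.0234) and Vdr in HAPN against WT (0.0329) without WT replicate 3. Groups of 2 and 3 libraries limit every comparison, and counting error relative to the level is widest for HFD1/2 with its 13 Cyp1a1 reads.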
